A study of Mus musculus with 80 samples.

Results

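The 10 genes described here encode heat shock proteins and their partners, and were taken by symbol from a count table of 20105 genes of mouse liver nuclei, where all 10 were found: Hspa8, Hspa1a, Hspa1b, Hsph1, Dnajb1, Hsp90aa1, Hsp90ab1, Hspb1, Hspd1 and Hspe1. Of these, 8 encode proteins of the cytosol and nucleus, while Hspd1 and Hspe1 encode the chaperonin of the mitochondrial matrix, so the working label "cytosolic" does not cover that pair. The nuclei came from female mice of 2 lines in which a tag on the nuclear envelope allows nuclei to be pulled down (INTACT, isolation of nuclei tagged in specific cell types). HEP-INTACT mice carry the tag in hepatocytes, the main metabolic cells of the liver, and MAC-INTACT mice carry it in macrophages. All mice of a line, controls included, were tagged. The sources used here give neither the ages nor the promoters that drive the tags. Mice either lost their food at Zeitgeber time (ZT) 12, the start of their active phase, or ate ad libitum (fed), and livers were taken 3, 8, 16 or 24 h later, at ZT15, ZT20, ZT4 or ZT12. Each line has 8 groups of 4 libraries of tagged nuclei and, for each of the 8 conditions, 1 library of unpurified liver nuclei pooled from 4 mice.

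Chaperones of the HSP70 family bind unfolded stretches of proteins in a cycle driven by ATP. HSP40 proteins such as DNAJB1 start that cycle, the HSP110 protein HSPH1 exchanges the nucleotide, and HSP90 takes over partly folded clients such as kinases and steroid receptors. Heat shock factor 1 (HSF1) activates most of these genes under stress by binding repeats of the letters GAA, head to head and tail to tail. In liver, heat shock genes are known to follow the daily rhythm of feeding and body temperature.

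The promoters were read for such repeats because the members differ in them. RefSeq promoter windows (build GRCm38.p6, the assembly that mm10 names) were found for 7 of the 10 genes, and the 250 bases before each start were searched on both strands. The shorter motifs were GAANNTTC and TTCNNGAA, in which N is any base, and the longer ones GAANNTTCNNGAA and TTCNNGAANNTTC, which contain the shorter. A shorter motif stood before 6 of these 7 genes, Dnajb1 being the exception, and in 12.8% of all 32851 windows. A longer motif stood only in the stretch shared by Hspd1 and Hspe1, in 2 of the 10 windows, and in 0.466% of all windows. A match is a run of letters and was not tested for binding. The stretches are printed 5′ to 3′ on the strand of the gene named (Hspe1 for the shared one), with motif matches in capitals:
Hspd1-Hspe1: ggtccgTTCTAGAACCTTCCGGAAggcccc
Hspa1b: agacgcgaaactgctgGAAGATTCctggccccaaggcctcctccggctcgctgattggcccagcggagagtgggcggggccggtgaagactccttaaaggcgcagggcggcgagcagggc
Hspa1a: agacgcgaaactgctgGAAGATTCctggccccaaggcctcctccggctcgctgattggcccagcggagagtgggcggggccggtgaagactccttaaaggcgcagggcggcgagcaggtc
Hspb1: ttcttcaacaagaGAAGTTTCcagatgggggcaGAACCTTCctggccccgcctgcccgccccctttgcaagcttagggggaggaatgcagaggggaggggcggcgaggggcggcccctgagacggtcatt
Hsph1: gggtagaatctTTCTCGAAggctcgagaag

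The first stretch is chr1:55088053-55088082 on the plus strand. It holds overlapping matches that begin 89 bases before the start of Hspe1 and, read on the other strand, 144 bases before the start of Hspd1. From these starts the 2 genes lie head to head, 216 bases apart, so they share a promoter region. A longer Hspd1 transcript in RefSeq starts at 55088243, so the matches lie inside its span. All 30 bases printed lie in an exon of some annotated transcript in GENCODE vM21. The Hspa1b stretch is chr17:34959239-34959358 and the Hspa1a stretch chr17:34972157-34972276, both on the minus strand, each with its match 104 bases before the start. These 2 genes encode inducible HSP70 proteins that are nearly identical, and their 250 bases before the start share 247 letters. How alike their counted spans are was not tested, and their separate counts are uncertain where reads fit both. The Hspb1 stretch is chr5:135887789-135887918 on the plus strand, with matches 117 and 97 bases before the start. The Hsph1 stretch is chr5:149636351-149636380 on the minus strand, with its match 33 or 54 bases before the start, depending on which of 2 RefSeq starts is used, and 26 of its 30 bases lie in annotated exons.

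The counts cover each gene from end to end, introns included: Hspa8 at chr9:40801273-40805199, Hspa1a at chr17:34969359-34972156, Hspa1b at chr17:34956429-34959238, Hsph1 at chr5:149616845-149636315, Dnajb1 at chr8:83608175-83612653, Hsp90aa1 at chr12:110691036-110696395, Hsp90ab1 at chr17:45567778-45573261, Hspb1 at chr5:135887919-135889563, Hspd1 at chr1:55077834-55087932 and Hspe1 at chr1:55088148-55091317 (mm10). No other gene of the table overlaps these spans. The longer RefSeq transcript of Hspd1 reaches 96 bases into the span of Hspe1 on the opposite strand. The sources used here do not say whether counting used the strand.

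Library totals ran from 12597786 to 44694933 counts, of which the 10 genes took 0.0146% to 0.0663%. Counts per library were high for Hspa8 (636 to 4726) and Hsp90ab1 (735 to 5221) and low for Hspb1 (0 to 100) and Hspa1a (0 to 23). Levels are given in CPM, the usual counts-per-million scale, after scaling of the libraries. Hepatocyte markers (10 genes) summed to 8880 to 29600 CPM in tagged hepatocyte nuclei and 4100 to 20400 CPM in tagged macrophage nuclei, so hepatocyte transcripts were present in the latter as well. Macrophage markers (10 genes) summed to 3630 to 6990 CPM in tagged macrophage nuclei, 30.2 to 78.4 CPM in tagged hepatocyte nuclei and 195 to 280 CPM in the pools. In bulk nuclei, fewer cells of a type and less RNA per cell cannot be told apart.

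Per kilobase of gene span, the constitutive Hspa8 and Hsp90ab1 stood at the top of the order and Hspa1b, Hspb1 and Hspa1a at the bottom in both cell types. In fed hepatocyte nuclei (16 libraries), Hspa8, the constitutive HSP70, had the highest level, 29.9 ± 11.1 CPM per kilobase (mean ± SD), and Hsp90ab1, the constitutive HSP90, followed with 19.1 ± 7.96 CPM per kilobase. This step lay within the larger SD of the pair. Hsp90aa1, the inducible HSP90, had 6.35 ± 4.03, Hspd1 5.78 ± 1.30 and Hspe1 4.46 ± 1.21 CPM per kilobase, followed by Hsph1 with 2.55 ± 1.51 and Dnajb1 with 0.908 ± 0.353 CPM per kilobase. Hsp90aa1 and Hspd1 did not differ beyond their spread. Hspa1b and Hspb1 both had 0.382 CPM per kilobase, with SDs of 0.237 and 0.529, and Hspa1a was last with 0.0715 ± 0.0480 CPM per kilobase. Steps among these last 3 lay within their spread.

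Fed macrophage nuclei (16 libraries) had the same order of all 10 genes. Hspa8 stood at 22.1 ± 8.13 CPM per kilobase, Hsp90ab1 at 13 ± 5.0, Hsp90aa1 at 4.09 ± 2.25 and Hspd1 at 2.74 ± 0.845 CPM per kilobase. From Hsp90aa1 to Dnajb1 (0.972 ± 0.390 CPM per kilobase), each step between neighbours lay within the larger SD.

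Levels differed between the cell types for 6 of 10 members, all 6 higher in fed hepatocyte nuclei (edgeR). Of all genes, 82.7% were called in either direction and 42.7% were called higher there. The members thus did not differ more often than genes at large. Cell type, mouse line and library series cannot be told apart in this comparison. The mitochondrial pair differed most clearly: Hspd1 by 1.05 ± 0.08 and Hspe1 by 1.04 ± 0.11 on the log2 scale (± SE; adjusted p = 1.79e-17 and 7.11e-12). Hsph1 was higher by 1.01 ± 0.21 (adjusted p = 2.02e-05), Hsp90aa1 by 0.55 ± 0.19 (0.00706), Hsp90ab1 by 0.51 ± 0.14 (0.000685) and Hspa8 by 0.41 ± 0.18 (0.0315; edgeR), the last ending without any 1 of 8 libraries. Hspa1b (0.37 ± 0.26), Hspb1 (0.90 ± 0.45), Dnajb1 (-0.12 ± 0.18) and Hspa1a (-0.53 ± 0.41) did not pass.

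**Figure D1:**
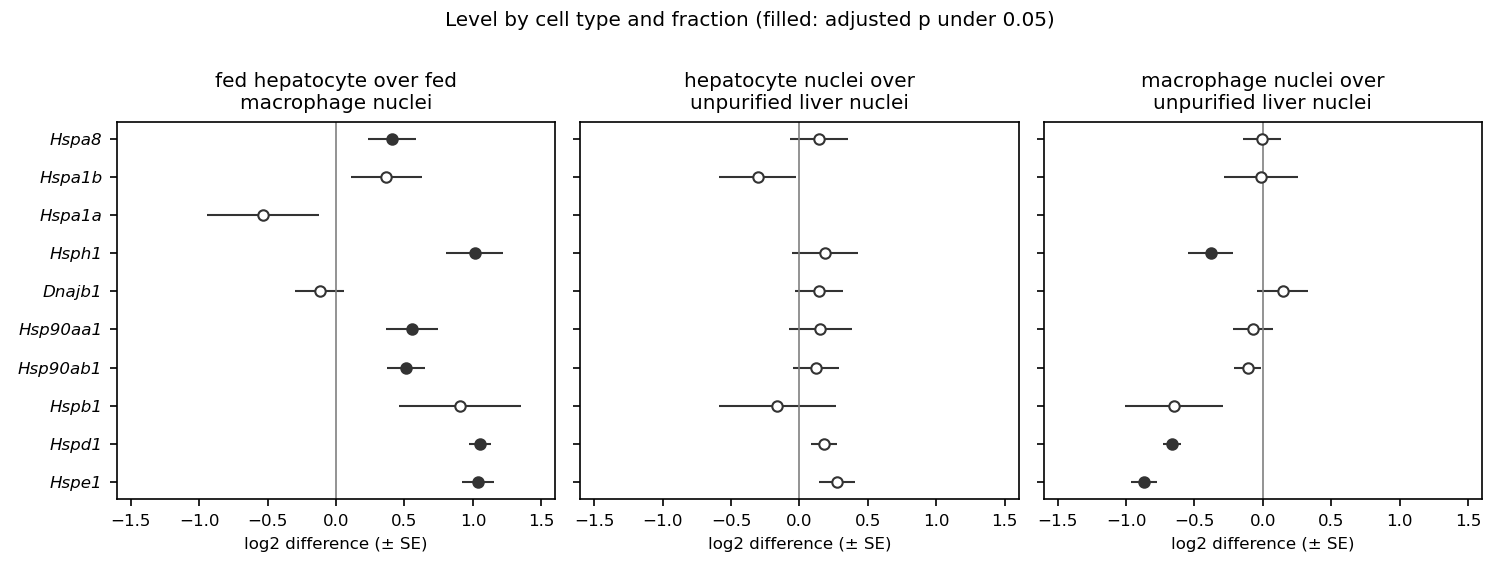
Log2 difference in level (horizontal axis, ± SE from the edgeR fit) for each gene (vertical axis) between fed hepatocyte and fed macrophage nuclei (16 against 16 libraries) and between tagged and unpurified nuclei of each line (32 libraries against 8 pools). Filled symbols passed an adjusted p under 0.05. Hspd1 is 1.05 ± 0.08 higher in hepatocyte nuclei and 0.66 ± 0.07 lower in macrophage nuclei than in the pools.

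Tagged nuclei were also compared with unpurified liver nuclei of the same line. Tagged macrophage nuclei held 29.1 ± 7.39 CPM of Hspd1 (SD, n = 32) and the pools of that line 46.6 ± 11.5 CPM (SD, n = 8). Hspd1 was lower in tagged macrophage nuclei by 0.66 ± 0.07 (log2 difference -0.66, ± SE; adjusted p = 7.08e-11) and Hspe1 by 0.87 ± 0.09 (log2 difference -0.87; 2.40e-10), with Hsph1 at -0.38 ± 0.17 (0.0369; edgeR), 3 of 9 members tested against 40.0% of all genes called lower there, so the count was not above the background. Hspb1 had a log2 difference of -0.65 ± 0.36 and did not pass. The call of Hsph1 ended without the filter on low counts, where 2 of the members were left. Hspa8 had 80.8 ± 33.4 CPM in tagged macrophage nuclei and 84.9 ± 36.5 CPM in the pools, a log2 difference of -0.01 ± 0.14. In the HEP-INTACT line, 0 of 9 members differed between tagged nuclei and pools (1 at an unadjusted p under 0.05, 0 by DESeq2; 49.5% of all genes called by edgeR), with the highest log2 difference in Hspe1, 0.27 ± 0.13. The pools of the lines held like levels of Hspd1, 52.3 ± 9.50 CPM in the HEP-INTACT line and 46.6 ± 11.5 CPM in the MAC-INTACT line (SD, n = 8 each).

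Most of the members differed between the 4 times in macrophage nuclei, in fed and in fasted mice. In fasted mice, time of day and length of the fast cannot be told apart. For all members but Hspb1, group means at 3 h (ZT15) and 24 h (ZT12) lay above those at 8 h (ZT20) and 16 h (ZT4). Hspb1 in fasted macrophage nuclei had its lowest mean at 24 h (0.140 CPM). In fed mice, 7 of 10 members passed an edgeR quasi-likelihood F-test over the 4 times (Benjamini-Hochberg adjusted p under 0.05), against 12.8% of all genes tested: Hsph1, Hsp90aa1, Hsp90ab1, Hspa8, Hspa1b, Hspd1 and Hspe1. In fasted mice, these 7 and Hspb1 passed, 8 of 10, against 38.1% of all genes in an F-test that was added after the data had been seen.

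**Figure D2:**
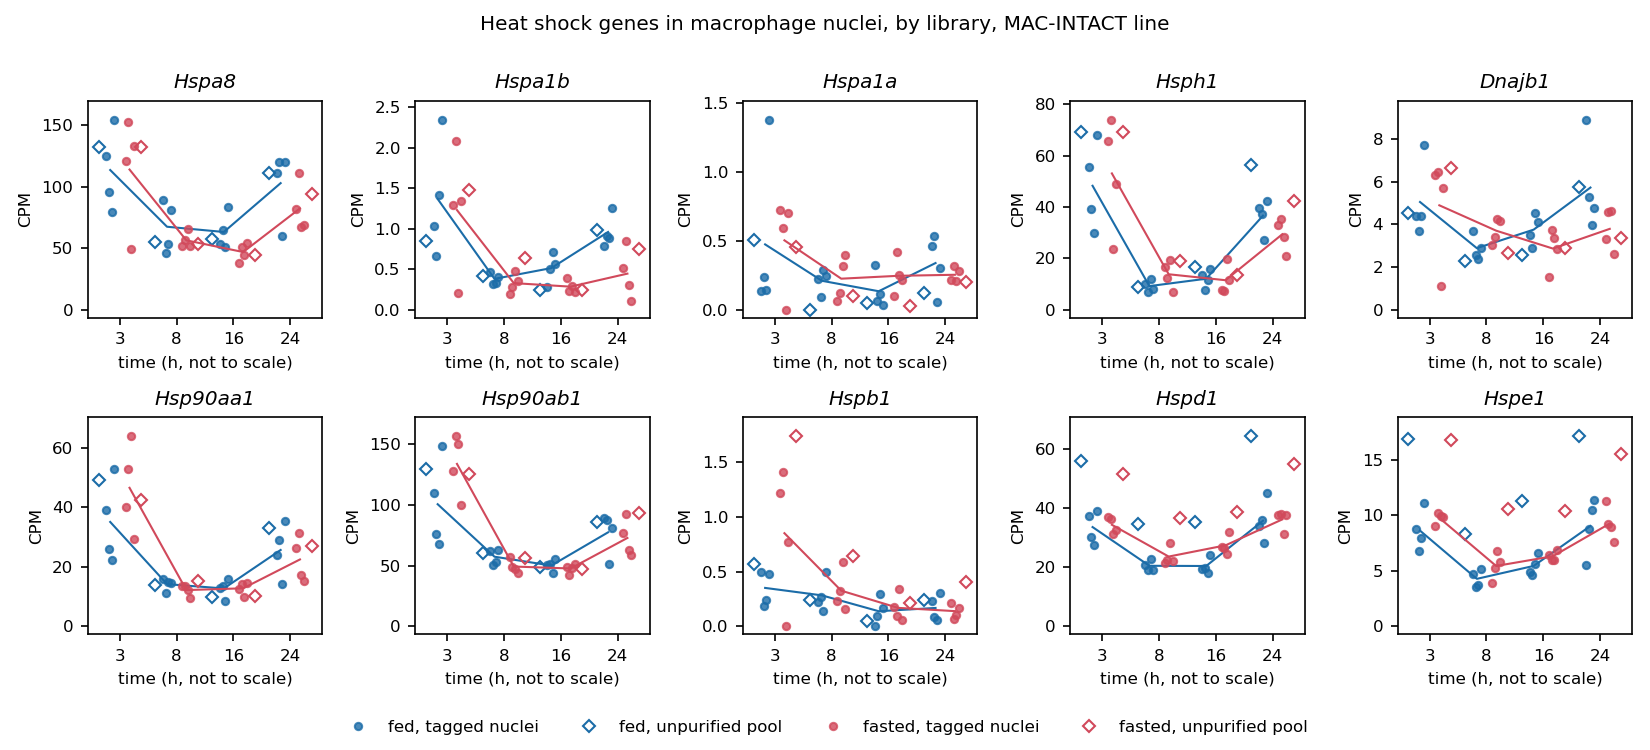
Level of each gene (CPM, vertical axis) by time (h, horizontal axis) in the MAC-INTACT line. Filled points are single libraries of tagged macrophage nuclei, lines join the means of 4 libraries, and open diamonds are single unpurified pools. For Hsph1, fed libraries sit between 29.8 and 68.1 CPM at 3 h and between 7.01 and 12 CPM at 8 h.

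Hsph1, the HSP110 nucleotide exchange factor, had the widest swing among the abundant members. Fed macrophage libraries held 55.7, 39.4, 29.8 and 68.1 CPM of Hsph1 at 3 h and 10, 7.01, 12 and 8.07 CPM at 8 h. At 16 h they held 13.4, 7.58, 11.7 and 15.9 CPM, and at 24 h 39.8, 37.2, 27.1 and 42.5 CPM. The fed libraries of 3 and 24 h did not overlap those of 8 and 16 h, and the highest group mean was 5.20 times the lowest (adjusted p = 1.94e-05, edgeR). Fasted libraries held 65.6, 73.8, 23.8 and 49.0 CPM at 3 h and 16.6, 12.3, 19.6 and 7.0 CPM at 8 h. They held 7.57, 7.28, 19.7 and 11.7 CPM at 16 h and 33.0, 35.4, 28.4 and 20.9 CPM at 24 h. The fasted groups separated in the same way, with a ratio of 4.59 between the highest and lowest means (adjusted p = 4.70e-05, edgeR).

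The HSP90 genes had the same shape. Hsp90aa1 in fed macrophage nuclei had means of 35.0 ± 13.9 CPM at 3 h, 14.2 ± 2.02 at 8 h, 12.7 ± 3.19 at 16 h and 25.6 ± 8.86 CPM at 24 h (SD, n = 4 each; edgeR adjusted p = 0.000838). Fasted nuclei had 46.5 ± 14.9, 12.2 ± 1.92, 12.8 ± 2.13 and 22.5 ± 7.72 CPM at the same times (adjusted p = 1.18e-05, edgeR). Hsp90ab1, the constitutive paralog, had a smaller ratio between its highest and lowest means in fed nuclei, 2.01 against 2.75 for Hsp90aa1, and ran from 50.0 ± 4.71 CPM at 16 h to 100 ± 36.7 CPM at 3 h in fed nuclei (SD, n = 4; edgeR adjusted p = 0.00134). In fasted nuclei it ran from 47.6 ± 3.82 CPM at 16 h to 134 ± 25.4 CPM at 3 h (SD, n = 4; edgeR adjusted p = 2.80e-06).

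Among the HSP70 genes, Hspa8 in fed macrophage nuclei had 113 ± 33.0 CPM at 3 h and 63.2 ± 14.9 CPM at 16 h (SD, n = 4; edgeR adjusted p = 0.0389), and these groups overlapped. In fasted nuclei Hspa8 had 114 ± 44.8 CPM at 3 h and 47.0 ± 7.45 CPM at 16 h (SD, n = 4; edgeR adjusted p = 0.00213), and these groups overlapped too. Hspa1b ran from 0.383 ± 0.0697 CPM at 8 h to 1.37 ± 0.717 CPM at 3 h in fed nuclei (SD, n = 4; edgeR adjusted p = 0.0276). The low level of Hspa1b rests on few counts. The fed calls of Hspa8 and Hspa1b were the least firm of the 7: without a filter on low counts Hspa8 had an adjusted p of 0.0639 (edgeR), and leaving out 1 of the 32 libraries ended its call in 14 cases and that of Hspa1b in 6.

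The mitochondrial pair passed in both feeding states. Hspd1 (HSP60) in fed macrophage nuclei had 37.6, 30.4, 27.7 and 39.1 CPM at 3 h and 20.9, 19.3, 22.8 and 19.3 CPM at 8 h. It had 19.5, 19.9, 18.2 and 24.4 CPM at 16 h and 33.9, 36.1, 28.2 and 45.2 CPM at 24 h. No fed library of 3 or 24 h was as low as any of 8 or 16 h (edgeR adjusted p = 2.17e-05). Hspe1 (HSP10), its cochaperonin, ran from 4.29 ± 0.755 CPM at 8 h to 9.05 ± 2.58 CPM at 24 h in fed nuclei (SD, n = 4; edgeR adjusted p = 0.0004). In fasted nuclei the adjusted p was 0.0022 for Hspd1 and 0.00236 for Hspe1 (edgeR).

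Dnajb1, the HSP40 partner of inducible HSP70, did not pass in either feeding state. Its fed means were 5.05 ± 1.79, 2.89 ± 0.584, 3.75 ± 0.719 and 5.72 ± 2.17 CPM at 3, 8, 16 and 24 h (SD, n = 4; edgeR adjusted p = 0.139). Hspa1a did not pass either, with adjusted p of 0.396 in fed and 0.349 in fasted nuclei (edgeR). Hspb1, the small heat shock protein HSP27, was at 0.139 to 0.351 CPM in the fed group means, and passed in fasted nuclei alone, where the 3 h mean was 0.850 ± 0.627 CPM (SD, n = 4; edgeR adjusted p = 0.00861). Whether feeding changes the time profile of Hspb1 is given by the test of the fasting effect between times, which gave an adjusted p of 0.602 (edgeR).

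The order of the group means held across the set: 9 of 10 members had both the 3 h and the 24 h mean above both the 8 h and the 16 h mean in fed macrophage nuclei, as did 9 of 10 in fasted nuclei, against 23.3% and 15% of all genes tested. This order was read off after the data had been seen and is a description. The summed hepatocyte markers in macrophage nuclei moved too: fed libraries held 5290 to 8700 CPM at 3 h, 4100 to 5980 at 8 h, 4570 to 6100 at 16 h and 5320 to 10700 CPM at 24 h. Their part in the profile was not tested. Unpurified pools of the same line showed the profile as well, with 69.3, 8.93, 16.6 and 56.3 CPM of Hsph1 in the fed pools at 3, 8, 16 and 24 h, and 69.1, 18.9, 13.5 and 42.5 CPM in the fasted pools. In the fed pools all 10 members, and in the fasted pools 9 of 10, had both the 3 h and the 24 h value above both others. In the HEP-INTACT line, 3 of 10 members had that order in the fed pools and 3 of 10 in the fasted pools. Hepatocyte markers summed to 14400 to 24900 CPM in the MAC-INTACT pools, and macrophage markers to 195 to 280 CPM. Cell type, mouse line and library series cannot be told apart in this profile. Each line has 1 pool for each condition, so these values carry no error.

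In hepatocyte nuclei fewer members passed and the libraries spread more. Whether the time profiles differ between the cell types was not tested. In fed mice, 5 of 9 members tested passed the F-test over times, against 30.1% of all genes: Hsph1, Hsp90aa1, Hspb1, Hspd1 and Hspa1b. In fasted mice, Hsph1 and Hspd1 passed, 2 of 9, against 44.9% of all genes. Without fasted replicate 4 of 16 h, 6 of 9 passed, and without fasted replicate 4 of 8 h, 4 of 9. Without fed replicate 2 of 3 h, 3 of 9 passed in fed mice. Hspa1a had too few counts to be tested in hepatocyte nuclei. Of the 9 tested, 5 in fed hepatocyte nuclei had both the 3 h and the 24 h mean above both others, against 15.3% of all genes. In fasted hepatocyte nuclei 4 of 9 had that order, against 19.1% of all genes.

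**Figure D3:**
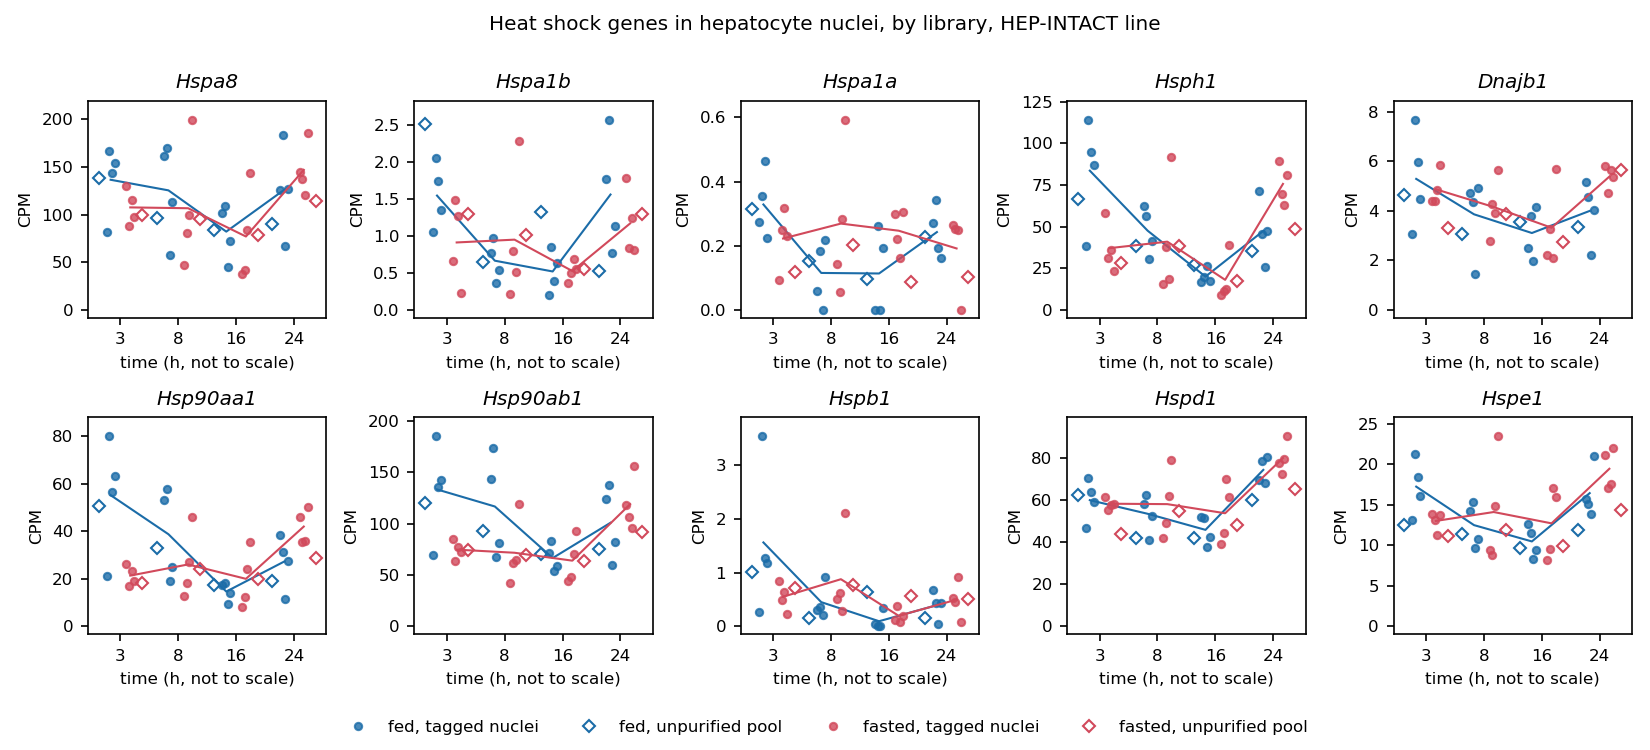
Level of each gene (CPM, vertical axis) by time (h, horizontal axis) in the HEP-INTACT line. Filled points are single libraries of tagged hepatocyte nuclei, lines join the means of 4 libraries, and open diamonds are single unpurified pools. For Hsp90aa1 at 3 h, 3 of 4 fed libraries sit between 56.7 and 80.0 CPM and the 4 fasted libraries between 17 and 26.2 CPM.

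Hsph1 in fed hepatocyte nuclei had 38.6, 114, 94.9 and 86.9 CPM at 3 h and 62.5, 56.4, 30.3 and 41.1 CPM at 8 h. It had 16.7, 19.8, 26.4 and 17.2 CPM at 16 h and 71.6, 45.3, 25.7 and 47.1 CPM at 24 h. The lowest group was thus 16 h (ZT4), and the highest mean was 4.17 times the lowest (edgeR adjusted p = 0.012). In fasted nuclei the highest mean came at 24 h, 75.7 ± 11.8 CPM, and the lowest at 16 h, 18.1 ± 14.1 CPM (SD, n = 4; edgeR adjusted p = 0.00655). Fasted libraries of these 2 times did not overlap, at 62.7 to 89.4 CPM against 9.06 to 39.1 CPM.

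Hspd1 moved over a narrower range than Hsph1. Fed hepatocyte nuclei had 59.9 ± 10.2 CPM at 3 h, 53.5 ± 9.24 at 8 h, 45.8 ± 7.03 at 16 h and 74.3 ± 6.23 CPM at 24 h (SD, n = 4; edgeR adjusted p = 0.0143). Fasted nuclei had 58.2 ± 2.55, 58.0 ± 16.2, 53.7 ± 14.5 and 79.9 ± 7.45 CPM (SD, n = 4; edgeR adjusted p = 0.0297), and leaving out any of 5 libraries of the 16 h or 24 h groups ended that call, with adjusted p up to 0.125. Hspb1 had the widest ratio between fed means, from 0.0980 ± 0.163 CPM at 16 h to 1.57 ± 1.39 CPM at 3 h (SD, n = 4; edgeR adjusted p = 0.00417), at very low counts. Without fed replicate 2 of 3 h, at 3.54 CPM, its adjusted p was 0.0701 (edgeR). Hspa1b ran from 0.521 ± 0.278 CPM at 16 h to 1.56 ± 0.788 CPM at 24 h (SD, n = 4; edgeR adjusted p = 0.0365), a call that ended without any 1 of 9 libraries.

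Times of the dark and light phase were also compared as 1 contrast, the mean of 3 and 8 h minus the mean of 16 and 24 h. The 24 h group (ZT12) counts as light here, although it stands at the start of the active phase. In fed hepatocyte nuclei, the contrast was above 0 for 3 of 9 members, against 23.6% of all genes called: Hsp90aa1 by 1.20 ± 0.32 on the log2 scale (± SE; adjusted p = 0.0063), Hspb1 by 2.02 ± 0.61 (0.0154) and Hsph1 by 1.03 ± 0.33 (0.0234; edgeR). The 8 h and 24 h means were close for Hsph1 (47.6 and 47.4 CPM) and Hspb1 (0.454 and 0.397 CPM). Their contrasts thus rested mainly on the 3 h and 16 h groups. For Hsp90aa1 the 8 h and 24 h means were 38.85 and 27.3 CPM. The call of Hsph1 ended without any 1 of 4 fed libraries and that of Hspb1 without any 1 of 2, with adjusted p of at most 0.0688, and without fed replicate 2 of 3 h only Hsp90aa1 passed. In fasted hepatocyte nuclei, no member of 9 passed at the adjusted threshold and none had an unadjusted p under 0.05 (27.0% of all genes called; DESeq2 called 0). The difference between these contrasts passed for 1 of 9 members, Hsp90aa1, at -1.48 ± 0.45 on the log2 scale (adjusted p = 0.014, edgeR; 27.3% of all genes called), and kept its call without each single library in turn. Without fasted replicate 4 of 8 h, Hsp90ab1 (-0.96, adjusted p = 0.0223) and Hsph1 (-1.28, 0.0217; edgeR) passed too.

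In fed macrophage nuclei the dark and light contrast called 0 of 10 members, none at an unadjusted p under 0.05 (2.14% of all genes called by edgeR; DESeq2 called 0 members). Each phase there holds 1 high and 1 low time. In fasted macrophage nuclei, the contrast was above 0 for Hsp90ab1 (0.45 ± 0.14 on the log2 scale, adjusted p = 0.0195) and Hspb1 (1.74 ± 0.53, adjusted p = 0.0182, edgeR). These were 2 of 10 members against 21.6% of all genes, near the background. For Hsp90ab1 the 8 h mean (49.2 CPM) lay below the 24 h mean (72.7 CPM), so only its 3 h group was high in the dark phase. Without fasted replicate 3 of 3 h, 6 of 10 members passed. The contrast did not differ between fed and fasted macrophage nuclei for any member at the adjusted threshold or at an unadjusted p under 0.05 (0 of 10 by edgeR and DESeq2; 5.42% of all genes called).

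An effect of fasting was called for 2 members, Hsp90aa1 in hepatocyte nuclei after 3 h and Hspd1 in macrophage nuclei after 16 h. The share of all genes called in the hepatocyte comparisons was 39.9% at 3 h, 38.7% at 8 h, 18.1% at 16 h and 24.0% at 24 h, while 1, 0, 0 and 0 of 9 members were called. At 3 h, 4 members had an unadjusted p under 0.05, and at the other times none had, and DESeq2 called 1, 0, 0 and 0. The median log2 fold change of the 9 members was -0.696 at 3 h, against -0.029 over all genes.

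**Figure D4:**
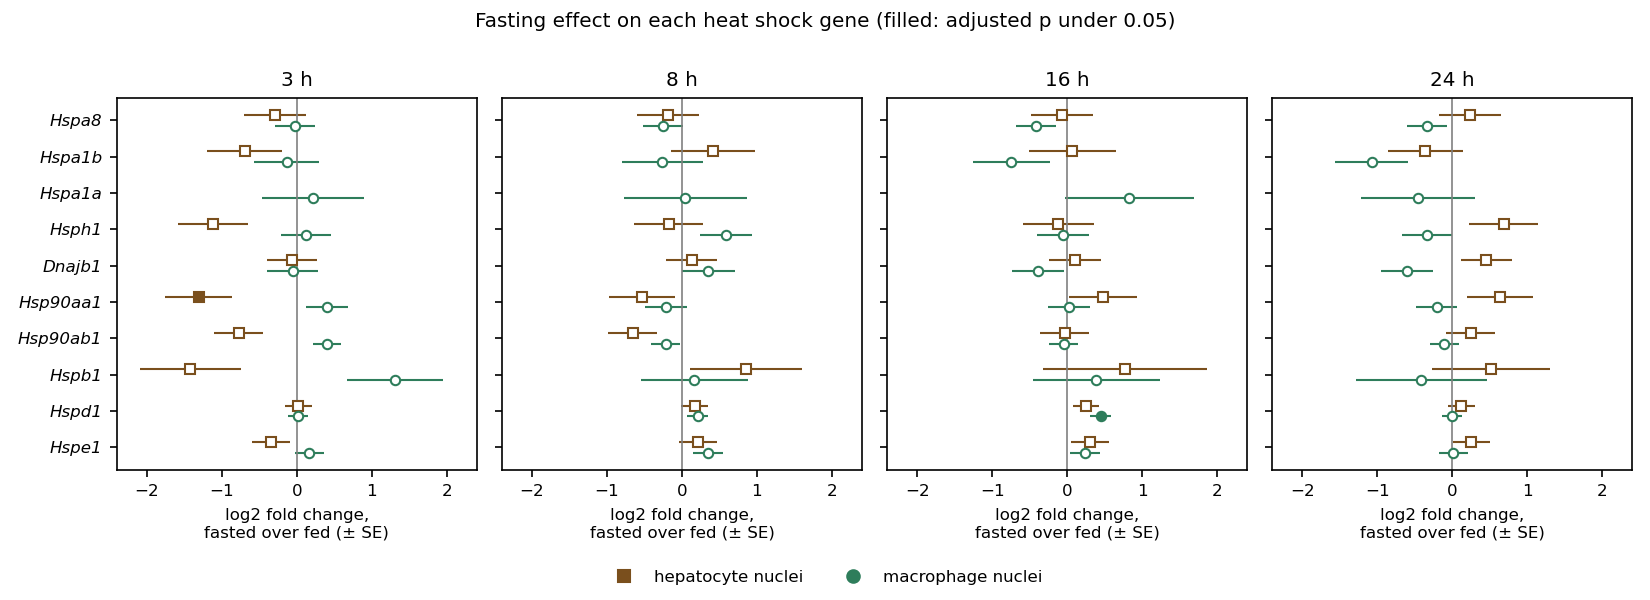
Log2 fold change of fasted over fed nuclei (horizontal axis, ± SE from the edgeR fit, 4 against 4 libraries) for each gene (vertical axis) at 3, 8, 16 and 24 h. Squares are hepatocyte and circles macrophage nuclei. The filled symbols are Hsp90aa1 in hepatocyte nuclei at 3 h (-1.31 ± 0.45) and Hspd1 in macrophage nuclei at 16 h (0.45 ± 0.14).

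Fed hepatocyte nuclei held 21.2, 80.0, 56.7 and 63.3 CPM of Hsp90aa1 at 3 h, and fasted nuclei 26.2, 17, 23.3 and 19.2 CPM. Of the fed libraries 3 lay above every fasted one, and fed replicate 1 lay among the fasted ones. Hsp90aa1 fell by 1.31 ± 0.45 on the log2 scale (± SE; edgeR adjusted p = 0.0211). Hepatocyte markers in the same libraries summed to 13100 to 16700 CPM when fed and 18700 to 27300 CPM when fasted, and their part in the result was not tested. The call ended without fed replicate 2 (adjusted p = 0.0765), fed replicate 4 (0.0526), fasted replicate 2 (0.0609) or fasted replicate 4 (0.0520). The effect on Hsp90aa1 differed between times at an adjusted p of 0.0455 (F-test, edgeR; 1 of 9 members, 32.8% of all genes called), which became 0.0785 without the filter on low counts and was lost in 24 of 32 fits that left out 1 library.

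Hsph1 and Hsp90ab1 stood close to the threshold at 3 h. Fed hepatocyte nuclei held 38.6, 114, 94.9 and 86.9 CPM of Hsph1 and fasted ones 58.0, 31.1, 36.0 and 23.3 CPM, a log2 fold change of -1.12 ± 0.46 (± SE; edgeR adjusted p = 0.0554). Fed nuclei held 69.9, 185, 136 and 143 CPM of Hsp90ab1 and fasted ones 85.3, 63.5, 77.7 and 72.8 CPM, a log2 fold change of -0.78 ± 0.33 (± SE; edgeR adjusted p = 0.061). In both genes fed replicate 1 was the low fed library. Without it, Hsp90aa1 (-1.55, adjusted p = 0.00816), Hsph1 (-1.33, 0.0328), Hsp90ab1 (-0.96, 0.0254) and Hspb1 (-1.74, 0.0394; edgeR) all passed, 4 of 9. That library was not apart in depth (23807067 counts against 18586699 to 27788128 in the others of its group). Its hepatocyte markers were the highest of its group (16700 against 13100 to 15800 CPM), below the 18700 to 27300 CPM of the fasted libraries. Their part in its low values was not tested.

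The other members did not pass at 3 h: Hspa8 had -0.29 ± 0.41 on the log2 scale, Hspa1b -0.70 ± 0.50, Dnajb1 -0.07 ± 0.33, Hspe1 -0.35 ± 0.25, Hspb1 -1.42 ± 0.67 and Hspd1 0.02 ± 0.18 (± SE). Hspd1 had the narrowest error of the set, and its libraries held 46.5, 70.6, 63.7 and 58.8 CPM when fed and 61.6, 55.4, 57.8 and 58.1 CPM when fasted. At 24 h, 8 of 9 log2 fold changes were above 0, led by Hsph1 (0.69 ± 0.46) and Hsp90aa1 (0.64 ± 0.44), with adjusted p of 0.292 and 0.313 (edgeR). At 8 h the lowest adjusted p was that of Hsp90ab1, with -0.66 ± 0.33 on the log2 scale (0.115, edgeR), which became 0.0241 without fasted replicate 4 (-0.99). The authors' deposited table for hepatocytes lists 2 of the members, Hspd1 and Hspe1. In the authors' deposited table Hspd1 had log2 fold changes of 0.0177, 0.216, 0.255 and 0.132 at 3, 8, 16 and 24 h, and Hspe1 -0.349, 0.267, 0.307 and 0.267. The smallest adjusted p among these in the authors' deposited table was 0.282.

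In macrophage nuclei, fasting called 0, 0, 1 and 0 of 10 members at 3, 8, 16 and 24 h, against 12.4%, 12.8%, 13.7% and 11.7% of all genes. Unadjusted p values under 0.05 numbered 1, 0, 1 and 1, and DESeq2 called 0, 0, 1 and 0. The gene called was Hspd1 at 16 h. Fed macrophage nuclei held 19.5, 19.9, 18.2 and 24.4 CPM of Hspd1 at 16 h, and fasted ones 27.0, 26.5, 24.6 and 31.9 CPM. The groups did not overlap. In every other such comparison of the members, fasted and fed libraries overlapped. How many of all genes separate in this way was not determined, so the separation adds no support to the call. Hspd1 rose by 0.45 ± 0.14 on the log2 scale (± SE; edgeR adjusted p = 0.0284). The adjusted p was 0.0687 in a fit to those 8 libraries, and 0.0695 to 0.0906 without fasted replicate 1 or 4 or fed replicate 1, 2 or 3 of that time. Hepatocyte markers in the same libraries summed to 6380 to 8000 CPM when fasted and 4570 to 6100 CPM when fed, and Hspd1 was higher in the unpurified pools (35.4 CPM fed and 38.8 CPM fasted at 16 h) than in tagged macrophage nuclei. The part of hepatocyte RNA in this difference was not tested. The fasting effect did not differ between times for any member in macrophage nuclei at the adjusted threshold or at an unadjusted p under 0.05 (0 of 10, edgeR; 4.65% of all genes called).

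One fasted macrophage library of 3 h, replicate 3, stood apart in the set. It held 49.4 CPM of Hspa8 against 121 to 152 CPM in the others, 23.8 CPM of Hsph1 against 49.0 to 73.8 CPM, and 1.1 CPM of Dnajb1 against 5.69 to 6.45 CPM. The HSP90 genes did not follow, with 63.7 CPM of Hsp90aa1 against 29.4 to 52.7 CPM in the others and 150 CPM of Hsp90ab1 against 100 to 156 CPM. Hspb1 and Hspa1a were at 0 counts in it, which allows up to 0.127 CPM. Its hepatocyte markers summed to 20400 CPM against 9730 to 9740 CPM in the others. Its stellate (108 against 66.8 to 68.2 CPM) and macrophage markers (5940 against 4210 to 5510 CPM) were also the highest of the 4. So was its sum over the lymphocyte list (1180 against 776 to 1040 CPM), which rests mostly on Ptprc. Ptprc had a mean of 685 CPM in tagged macrophage nuclei and 62.4 CPM in the pools of that line, so this sum does not single out lymphocytes. The part of the markers in these values was not tested. Without it, Hspb1 passed at 3 h with 1.69 on the log2 scale (edgeR adjusted p = 0.0474), and no other member did. Without fed replicate 4 of 3 h, Hsp90ab1 alone passed, with 0.64 on the log2 scale (edgeR adjusted p = 0.0337).

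The difference of the fasting effect between the cell types was tested in a fit to all 64 tagged libraries. At 3 h it was called for Hsp90aa1 (-1.66 ± 0.53 on the log2 scale, hepatocyte minus macrophage; adjusted p = 0.0357, edgeR) and Hsp90ab1 (-1.13 ± 0.39, 0.0499), 2 of 10 members against 10.6% of all genes. Macrophage nuclei at 3 h held 39.0, 25.9, 22.4 and 52.9 CPM of Hsp90aa1 when fed and 40.2, 52.7, 63.7 and 29.4 CPM when fasted, which overlap. The call of Hsp90aa1 ended without any 1 of 10 libraries of 3 h, including fasted macrophage replicate 3 (-1.47, adjusted p = 0.0899), and that of Hsp90ab1 in 48 of 64 such fits and without the filter (0.0617). At 8, 16 and 24 h, 0 of 10 members were called, with 0, 0 and 1 at an unadjusted p under 0.05 and 0 by DESeq2, against 7.62%, 0.535% and 4.05% of all genes.

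Line, library series and cell type cannot be told apart here either, and the pools of unpurified nuclei showed a difference of the same direction. At 3 h the HEP-INTACT pools held 50.6 CPM of Hsp90aa1 when fed and 18.4 CPM when fasted, and the MAC-INTACT pools 49.2 and 42.3 CPM. For Hsp90ab1 they held 120 and 74.5 CPM in the HEP-INTACT line, and 129 and 125 CPM in the MAC-INTACT line. Averaged over the 4 times and both lines, fasting changed 0 of 9 members in the pools, with 1 at an unadjusted p under 0.05, Hspb1 (0.92 ± 0.39 on the log2 scale, adjusted p = 0.092), and 0 by DESeq2, against 27.5% of all genes (edgeR).

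Other chaperones gave the setting of these results. Hsf1, the regulator, rose in hepatocyte nuclei at 8 h (0.50 ± 0.14 on the log2 scale, adjusted p = 0.0053, edgeR). It did not pass at the other times or in macrophage nuclei, but the differences did not pass either: its effect differed between times at an adjusted p of 0.322, and at 8 h between cell types at 0.389 (edgeR). Of 17 HSP70 and HSP90 cochaperones, 7 changed in hepatocyte nuclei at 3 h, 5 of them lower, a median log2 fold change of -0.090. That is 41.2% of the list against 39.9% of all genes, near the background. They included Stip1 (-0.96 ± 0.26), which links HSP70 to HSP90, the immunophilin Fkbp4 (-0.94 ± 0.17) and Bag3 (-0.77 ± 0.24, adjusted p = 0.0134), a nucleotide exchange factor. Fkbp5, an immunophilin known as a target of the glucocorticoid receptor, rose by 4.47 ± 0.50 on the log2 scale there and by 3.86 ± 0.47 in macrophage nuclei at 3 h. Of 15 other HSP70, HSP40 and small heat shock genes tested, 7 changed at 3 h in hepatocyte nuclei, with Hspa4l lower (-1.84 ± 0.20) and Hspa2 (1.56 ± 0.52) and Hspb8 (0.99 ± 0.20) higher. That is 46.7% of those tested against the same 39.9%.

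The organelle chaperones moved in opposite directions in hepatocyte nuclei. Of 15 chaperones of the endoplasmic reticulum, 13 fell at 3 h, or 86.7% against 39.9% of all genes called in either direction, a median of -1.649 on the log2 scale. Sdf2l1 (-4.11 ± 0.67), Manf (-2.88 ± 0.47), Pdia6 (-2.26 ± 0.37) and Hspa5 (BiP; -1.27 ± 0.31, adjusted p = 0.00176, edgeR) were among them. Of 10 mitochondrial chaperones and proteases, 7 rose and 1 fell at 3 h, a median of 0.477 on the log2 scale. Grpel2 rose by 1.65 ± 0.19, Dnaja3 by 1.05 ± 0.16, and Hspa9, the HSP70 of mitochondria, by 0.37 ± 0.13 (adjusted p = 0.0309, edgeR). Hspd1 and Hspe1, the mitochondrial pair among the members, did not pass in the same comparison. In macrophage nuclei, 5 of these 10 rose at 8 h, when 12.8% of all genes were called, Hspa9 by 0.40 ± 0.11 (adjusted p = 0.0153, edgeR), and Hspa9 rose by 0.63 ± 0.11 at 16 h. The TRiC chaperonin, the folding machine of the cytosol, had 1 of 8 subunits called at 3 h in hepatocyte nuclei (Cct7, -0.46 ± 0.17), against 39.9% of all genes. In macrophage nuclei at 3 h it had 0 of 8 called, against 12.4% of all genes. Cct8 rose in macrophage nuclei at 16 h (0.32 ± 0.10 on the log2 scale, adjusted p = 0.0268, edgeR), 1 of 8 against 13.7% of all genes.

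In fed macrophage nuclei, 11 of the 17 cochaperones passed the F-test over times, and 12 of 17 had both the 3 h and the 24 h mean above both others. Over all genes, 12.8% passed and 23.3% had that order. All 8 TRiC subunits had that order and 4 of them passed. Of the 15 chaperones of the endoplasmic reticulum, 4 passed, or 26.7%, and 10 had that order, or 66.7%.

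The genes whose log2 CPM followed a member most closely over the 32 tagged libraries of a line are given here for an HSP90, both kinds of HSP70 and a mitochondrial member. For Hsp90aa1 in hepatocyte nuclei the highest Pearson r among 11550 genes was that of Stip1 (0.898), followed by Fermt3 (0.843), Ppef2 (0.840), Ahsa1 (0.831) and Naa16 (0.825). In macrophage nuclei, among 12341 genes, the order was Fxr1 (0.888), Naa16 (0.875), Cacybp (0.870), Chordc1 (0.867) and Zc3h14 (0.852). For Hspa8 these were Dnaja1 (0.826), Impdh2, Ahsa1, Rbm3 and Avil in hepatocyte nuclei, and Stip1 (0.856), Baz1b, Bcap31, Fkbp4 and Hist1h2bc in macrophage nuclei. For Hspa1b they were Chordc1 (0.759), Fxr1, Naa16, Cct4 and Banp in hepatocyte nuclei, and Stip1 (0.789), Fkbp4, P4ha2, Lsr and B4galt5 in macrophage nuclei. For Hspd1 they were Ahsa1 (0.828), Tcp1, Eef1d, Txn2 and Cct2 in hepatocyte nuclei, and Dnaja1 (0.889), Mthfd1l, Cct3, Cct8 and Ahsa2 in macrophage nuclei. Without the 2 libraries farthest from the median of the member, these coefficients were 0.668 to 0.879. All points share the groups' times and feeding states, so these are descriptions of likeness.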

How the data were processed

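RNA of tagged nuclei (64 libraries) and of unpurified liver nuclei (16 pools) was sequenced as paired reads of 50 bases without selection for polyadenylated RNA. STAR (2.4.2a), build mm10 and DESeq2 (1.24.0) are listed in the submitters' processing notes, and no counting tool is named there. The authors deposited whole-number counts per gene for all 80 libraries. A deposited table also holds the authors' log2 fold changes and adjusted p-values for a subset of genes, 2 of the 10 described here, and the macrophage table, which lists none of them, was not used.

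Symbols matched the count table directly, and table starts were raised by 1 to count from 1. The counts entered edgeR 4.0.16 (R 4.3.3) with filterByExpr (count minimum 10, total minimum 15), TMM scaling, robust quasi-likelihood F-tests on group means and Benjamini-Hochberg adjustment over all genes tested, called at 0.05. Each fit used all 32 tagged libraries of a line, all 64, the 32 with the 8 pools of the line (condition as a term), or the 16 pools (line and time as terms). The standard error is the log2 fold change over the root of F. CPM were scaled by TMM over the 80 libraries, and log2 CPM used a prior count of 2. Scripts were tested on simulated data. The alternatives were RLE scaling, no filter, DESeq2 1.42.0, only the 8 libraries compared, runs of library numbers as a term, and leaving out each library.

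All 10 genes are named. Of the 6 lists of other chaperones, up to 4 called genes with the highest absolute log2 fold change at the time with most calls were named, with Hsf1, Bag3, Hspa5 and Hspa9 always. The 5 most alike genes had a mean of at least 1 CPM and the highest Pearson r. The members and lists were chosen with earlier results of these data known. Replicates were numbered in the order of accessions, and the labels do not say that libraries came from separate mice, so the spread behind each p-value is that of libraries and may be technical. No 2 libraries of a group held identical counts. Intervals from counts at 0 (3 counts of the scaled total) cover counting error only.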

Additional observations from a re-analysis of the deposited data

Results flagged for a closer look

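In 160 sets of 4 libraries (10 genes in 16 groups) a library was marked where its gap to the nearest other exceeded Dixon's 95% critical value, which chance gives in about 8 sets, and 8 were marked. The low libraries were Dnajb1 in fed hepatocyte nuclei at 8 h (replicate 3, 1.47 CPM against 4.34 to 4.92), Dnajb1 in fasted macrophage nuclei at 3 h (replicate 3, 1.1 CPM against 5.69 to 6.45), Hspa8 in fed macrophage nuclei at 24 h (replicate 3, 60.3 CPM against 111 to 120), Hspd1 in fasted macrophage nuclei at 24 h (replicate 3, 31.5 CPM against 37.7 to 38.1) and Hspa1a in fasted hepatocyte nuclei at 24 h (replicate 4, 0 CPM against 0.250 to 0.264). The high ones were Hsph1 in fasted hepatocyte nuclei at 16 h (replicate 4, 39.1 CPM against 9.06 to 12.6), Hspa1a in fed macrophage nuclei at 3 h (replicate 4, 1.38 CPM against 0.136 to 0.243) and Hspb1 in fed hepatocyte nuclei at 16 h (replicate 4, 0.340 CPM against 0 to 0.0519).

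Tests of whether an effect differed between cell types, feeding states or times passed for the HSP90 genes alone among the members. The fasting effect at 3 h differed between hepatocyte and macrophage nuclei by -1.66 for Hsp90aa1 and -1.13 for Hsp90ab1 on the log2 scale. These were 2 of 10 members against 10.6% of all genes. Leaving out 1 library ended the call of Hsp90aa1 in 10 of 64 fits and that of Hsp90ab1 in 48. The contrast of dark and light times differed between fasted and fed hepatocyte nuclei by -1.48 for Hsp90aa1, 1 of 9 members against 27.3% of all genes. The fasting effect on Hsp90aa1 differed between times at an adjusted p of 0.0455 (edgeR), 1 of 9 members against 32.8% of all genes. That call was lost in 24 of 32 fits that left out 1 library.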

How the results depend on the processing

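Counts of members called were recomputed under each alternative. In a fit to only the 8 libraries compared, hepatocyte nuclei at 3 h had 3 members called and macrophage nuclei at 16 h had 0. Without the filter on low counts, the difference between cell types at 3 h had 1 and the difference of the hepatocyte fasting effect between times 0. RLE scaling, DESeq2 and the library-number run as a term moved no count by more than 1.5 times, and no single value changed its sign under any alternative. Leaving out 1 library gave, for fasting, 0 to 4 members in hepatocyte nuclei at 3 h, 0 to 1 at 8 h, and in macrophage nuclei 0 to 1 at 3 h and 0 to 1 at 16 h. It gave 1 to 4 for the dark and light contrast in fed hepatocyte nuclei, 1 to 3 for its difference between feeding states, 0 to 1 for the fasting effect between times and 3 to 6 and 1 to 6 for times in fed and fasted hepatocyte nuclei. It gave 2 to 6 for the dark and light contrast in fasted macrophage nuclei, 5 to 8 and 8 to 9 for times in fed and fasted macrophage nuclei, and 0 to 3 for the difference between cell types at 3 h. The causes were not tested. No paired analysis was possible because replicate numbers follow accession order and pair nothing. Hspa1a and Hspb1, with medians of 4 and 7 counts, are limited by depth.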
